A study of Mus musculus with 18 samples.

Results

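Messenger RNA of 10 integrin chains was followed in 3 sorted subsets of thymic iNKT cells (invariant natural killer T cells), namely NKT1, NKT2 and NKT17, of WT and SKG mice. The members were taken by symbol from a count table of 23337 genes. They are 6 α chains (Itga1, Itga2, Itga4, Itgae, Itgal and Itgav) and 4 β chains (Itgb1, Itgb2, Itgb3 and Itgb7), and all 10 were among the 11118 genes with enough counts for a test. There were 6 groups with 3 libraries each: WT NKT1, WT NKT2, WT NKT17, SKG NKT1, SKG NKT2 and SKG NKT17. Both genotypes were on the BALB/c background, and the SKG mice carry a spontaneous point mutation in Zap70, the kinase that acts just below the T cell receptor (TCR), which weakens TCR signalling. WT and SKG mice were bred as separate lines from offspring of a cross between BALB/cJ and SKG animals, and neither their age nor their sex is given in the sources used here. No mouse received a treatment. All subsets were sorted as cells that bind the CD1d tetramer, NKT1 as ICOS-low and CD49a-positive, NKT2 as CD49-negative, Sdc-1-negative, ICOS-high, CD4-high and TCRβ-high, and NKT17 as CD49-negative, ICOS-high and Sdc-1-positive. CD49a is the protein of Itga1, so the separation of Itga1 between NKT1 and the other subsets was set by the sort and is given as a description only.

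Integrins are adhesion receptors made of an α and a β chain, and a chain reaches the cell surface only with a partner. The β1 chain pairs with many α chains: α1β1 and α2β1 bind collagens, and α4β1 binds VCAM-1 and fibronectin. The β7 chain pairs with αE (CD103), which binds E-cadherin on epithelium, and with α4, which binds MAdCAM-1 on gut vessels, while αL and β2 form LFA-1, the receptor for ICAM-1. αvβ3 binds vitronectin, osteopontin and other matrix proteins. In T cells, signals from the TCR and chemokine receptors act through Rap1, RIAM, talin and kindlin to raise the affinity of integrins, and LFA-1 is known for holding iNKT cells in tissues.

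The libraries held 4391029 to 8895917 counts each and detected 11657 to 13071 genes, and the members took up 0.31% to 0.55% of the counts of a library. Replicates of a group differed from each other by more than sampling noise. The labels do not say that they came from separate animals, so p-values measure the spread between these libraries, which may be technical. Zap70 itself, in which the mutation changes the protein and not necessarily the level, averaged 563, 520 and 789 CPM (read counts scaled to library size) in WT NKT1, NKT2 and NKT17, and 477, 397 and 527 CPM in the SKG groups, and it was below WT in SKG NKT2 (-0.39 on the log2 scale, edgeR adjusted p = 0.0378) and SKG NKT17 (-0.58, adjusted p = 0.00174), by less than 1.5-fold. Summed NKT1 markers (Tbx21, Ifng and others) reached 4550 to 5160 CPM in WT NKT1 and 3750 to 4150 CPM in SKG NKT1, against 185 to 423 CPM in the other groups. The largest part of this sum was Il2rb, at an average of 2680 CPM in WT NKT1 and 2120 CPM in SKG NKT1. Klrb1c, also in the list, was close in NKT1 and NKT17, averaging 44.3 and 38.9 CPM in WT and 27 and 25.6 CPM in SKG. Il23r, the interleukin 23 receptor chain of NKT17 cells, averaged 454 CPM in WT and 245 CPM in SKG NKT17 and at most 0.507 CPM in the other groups. Summed NKT2 markers reached 2280 to 2560 CPM in WT NKT2, and in SKG NKT2 (1690 to 2140 CPM) their range overlapped that of SKG NKT17 (1690 to 1820 CPM). Of this list, Gata3 averaged 173 CPM in SKG NKT2 against 230 and 244 CPM in SKG NKT1 and NKT17, and 268 to 269 CPM in the WT subsets. Il4 averaged 146 CPM in WT NKT2 and 96.2 CPM in SKG NKT2. Zbtb16 was at 194 and 193 CPM in these groups, and Il17rb was higher in SKG NKT2 (480 against 278 CPM). Sdc1, the sort marker of NKT17, averaged 421 CPM in WT and 415 CPM in SKG NKT17 and at most 0.624 CPM in the other groups. In SKG NKT2, Icos (735 ± 109 CPM, SD, n = 3) and Cd4 (221 ± 19.4 CPM), which were both sort criteria, were below WT NKT2 (1110 ± 34.2 and 380 ± 17 CPM).

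Compared per length, as CPM per kilobase of exon, the members spanned 3 tiers. As the RNA came from sorted pools, fewer cells with a transcript and less transcript per cell cannot be told apart for any member. Itgb7, Itgb2, Itgae and Itgal stood highest in all groups, at 112 to 664 CPM per kilobase on average, joined by Itgb1 in NKT1 (168 in WT and 206 in SKG). Itgb1 in NKT2 and NKT17 (26.6 to 38.5 CPM per kilobase), Itgb3 in WT NKT2 and in NKT17 of both genotypes (25.4 to 27.0) and Itga1 in NKT1 (28.0 in WT and 26.5 in SKG) formed a middle tier. Itga2, Itga4 and Itgav did not exceed an average of 3.0 CPM per kilobase in any group. Itgb2 ranked first of the 10 chains in WT NKT1 and WT NKT2, with Itgb7 next, while Itgb7 ranked first in WT NKT17 and in all 3 SKG groups. In NKT1 the ranges of Itgb2 and Itgb7 did not overlap in WT (328 to 429 against 231 to 290) but did overlap in SKG (373 to 445 against 388 to 449).

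**Figure D1:**
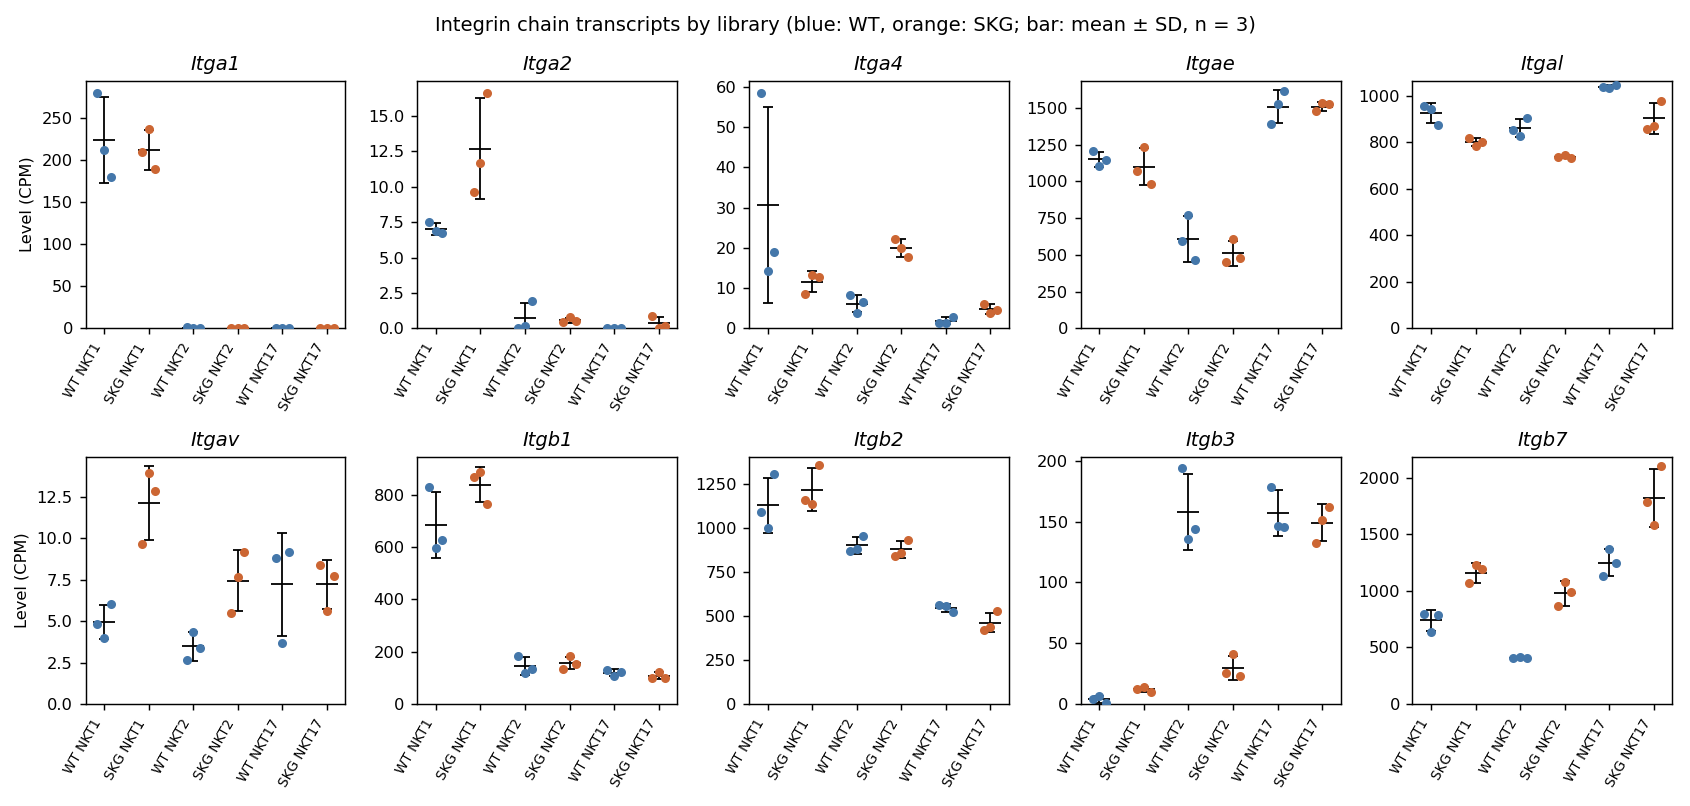
Level of each integrin chain (CPM, linear axes from 0, a different scale for each gene) in each of the 18 libraries by group, with the group mean and SD (n = 3). Itga1, Itga2 and Itgb1 stand high in NKT1 alone, Itgb3 is near 0 in NKT1 and drops from 158 CPM in WT NKT2 to 29.9 CPM in SKG NKT2, and Itgb7 is higher in SKG than in WT in each subset with no overlap.

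The subset comparisons ask which chains set NKT1, NKT2 and NKT17 apart. A gene was called at an adjusted p under 0.1 with at least a 1.5-fold difference (edgeR's quasi-likelihood test, Benjamini-Hochberg adjustment over all 11118 tested genes). Itga1 and Itga2 had enough counts for a test only through their NKT1 libraries, so that a difference from NKT1 was built in, and they are left out of the counts over the subsets. Of the other 8 members, 5 were called between WT NKT1 and WT NKT2 (4 higher and 1 lower in NKT1), where 27.5% of all tested genes were called. Between WT NKT1 and WT NKT17, 5 were called (3 higher and 2 lower in NKT1, against 24.7% of all genes), and between WT NKT17 and WT NKT2, 5 were called (3 higher and 2 lower in NKT17, against 20%). In SKG mice the corresponding counts were 3 (2 higher, 1 lower; background 18.7%), 5 (3 higher, 2 lower; 22.8%) and 5 (3 higher, 2 lower; 18.8%). The median log2 fold change of the 8 members was 0.68, -0.28 and 0.13 in WT and 0.36, 0.29 and 0.12 in SKG, beside medians within 0.02 of 0 over all tested genes. The comparisons of a genotype share libraries and are not independent of each other.

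The comparison of SKG with WT asks which chains differ with the Zap70 mutation. In NKT1, 4 of 10 members were called (Itgav, Itgb3 and Itgb7 higher and Itga4 lower in SKG), where 3.27% of all tested genes were called. In NKT2, 3 members were called (Itga4 and Itgb7 higher, Itgb3 lower), against 7.95% of all genes, and DESeq2 called 4. In NKT17 edgeR called 0 members, against 8.37% of all genes. There 5 members had an unadjusted p under 0.05 in edgeR's test, as had 2399 of the 11118 tested genes. Among these 5, Itga2 compared 0 counts in WT with 7 in SKG and was admitted to the test by its NKT1 libraries. DESeq2 called 1 of the 5, Itga4. The shares of all genes called by DESeq2 are not given, so its counts are not read further. The median log2 fold change of the members without Itga1 and Itga2 was 0.20, 0.04 and -0.04 in the 3 subsets. The difference of the SKG effect between subsets was called for 3 members between NKT2 and NKT1 (Itga4, Itgb3 and Itgb7; 3.87% of all genes), 2 between NKT17 and NKT1 (Itga4 and Itgb3; 4.17%) and 2 between NKT17 and NKT2 (Itgb3 and Itgb7; 2.19%). Without WT NKT1 replicate 1, 2 members instead of 4 were called in NKT1, and the same count followed without WT NKT1 replicate 2 or without any of the 3 SKG NKT1 libraries.

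**Figure D2:**
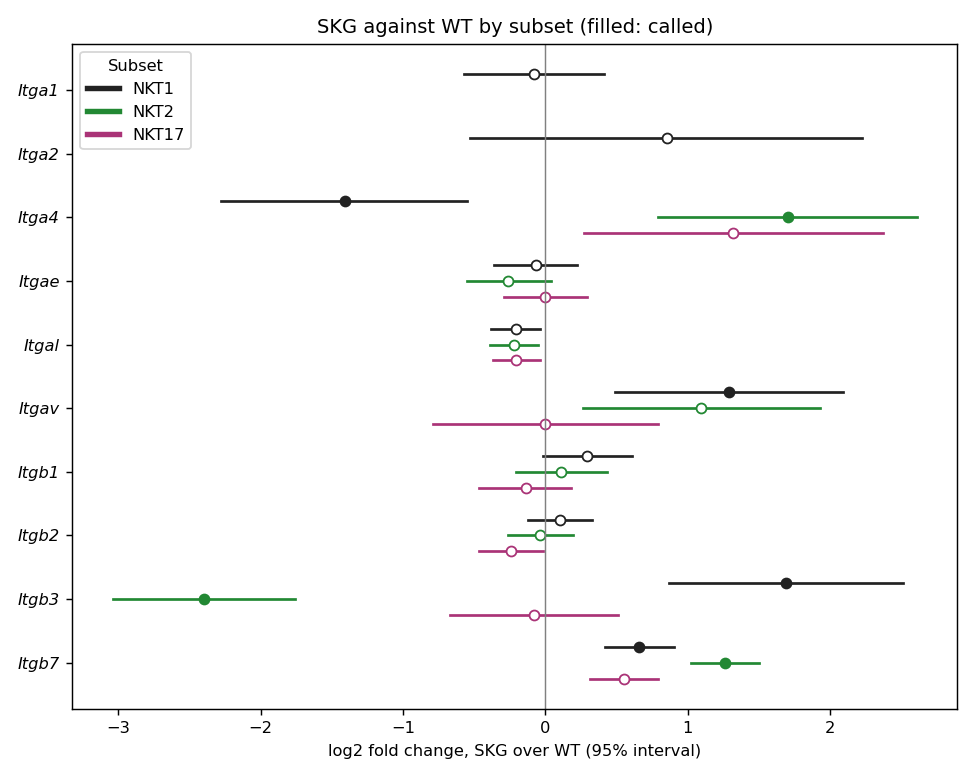
log2 fold change of SKG over WT with its 95% interval (x axis) for each integrin chain (y axis) in NKT1, NKT2 and NKT17, filled where the difference was called. Itga1 and Itga2 are drawn only for NKT1, since their counts were near 0 in the other subsets. Itgb3 points to opposite sides in NKT1 (1.69) and NKT2 (-2.40), as does Itga4 (-1.41 and 1.70), while Itgb7 lies above 0 in all 3 subsets.

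The collagen receptor chains Itga1, Itga2 and Itgb1 were all highest in NKT1. Itga1 lies at chr13:115748287-115892172 and Itga2 at chr13:115626124-115722249 on the minus strand of build NCBIM37, 26.0 kb apart, and Itgb1 at chr8:131209554-131257100 on the plus strand. The 300 bases around the start of a transcript of Itga1 (250 before to 50 after, chr13:115892123-115892422) and of Itga2 (chr13:115722259-115722558), taken from RefSeq on build GRCm38.p6 and found by exact match on NCBIM37, are shown because these neighbouring genes were high in the same subset. They were searched on both strands for sites of factors that act in iNKT cells. For RUNX factors the letters were TGTGGT. For T-box factors such as T-bet they were GGTGTGA. The factor Gata3 of NKT2 cells was represented by AGATAA. A match would stand in capitals.
Itga1: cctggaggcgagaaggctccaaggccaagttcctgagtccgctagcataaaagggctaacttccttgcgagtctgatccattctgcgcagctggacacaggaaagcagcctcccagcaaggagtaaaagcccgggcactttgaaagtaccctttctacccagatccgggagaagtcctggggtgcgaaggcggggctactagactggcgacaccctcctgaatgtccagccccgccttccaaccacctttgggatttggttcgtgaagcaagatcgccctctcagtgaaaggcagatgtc
Itga2: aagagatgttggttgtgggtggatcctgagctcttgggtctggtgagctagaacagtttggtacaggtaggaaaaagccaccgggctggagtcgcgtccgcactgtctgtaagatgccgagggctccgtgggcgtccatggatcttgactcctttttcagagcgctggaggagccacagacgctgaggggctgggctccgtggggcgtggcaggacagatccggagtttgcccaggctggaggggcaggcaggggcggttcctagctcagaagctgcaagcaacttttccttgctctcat
No match stood in these windows or in those of Itgav, Itgb1 and Itgb7, the other members with an entry beside Itga4. Among all 32851 promoter windows of the table, 16.8% held the RUNX letters, 4.0% those of T-box factors and 11.2% those of Gata3.

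Itga1, the CD49a chain used in the sort, was at 279.7, 212.3 and 179.3 CPM in the WT NKT1 libraries and at 209.8, 236.4 and 188.8 CPM in SKG NKT1. The genotypes overlapped there, with a value of -0.08 on the log2 scale (SE 0.24, 95% interval -0.57 to 0.41, edgeR adjusted p = 0.947). Outside NKT1 the 3 libraries of a group together held 11 counts in WT NKT2, 2 in WT NKT17, 2 in SKG NKT2 and 1 in SKG NKT17. The transcript followed the sort in each library.

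Itga2, the α chain of the other collagen receptor, was not named in the gates. It was at 7.485, 6.874 and 6.731 CPM in WT NKT1 and at 9.661, 11.66 and 16.63 CPM in SKG NKT1. In NKT2 it was at 0, 0.175 and 1.94 CPM in WT and at 0.44, 0.783 and 0.482 CPM in SKG. In WT NKT17 no library had a count, and in SKG NKT17 the libraries were at 0.85, 0 and 0.188 CPM. Each NKT1 library therefore stood above each NKT2 and NKT17 library. Since Itga2 was admitted to the test by its NKT1 libraries (36 to 96 counts, against 0 to 12 in every other library), its differences from NKT1 are given as ratios of pooled counts with no test. WT NKT1 exceeded WT NKT2 by a ratio of 9.17 (95% exact interval 5.19 to 17.7, counting error only) and WT NKT17 at least 43-fold, taking 3 counts over the group as the floor. SKG NKT1 exceeded SKG NKT2 by a ratio of 22.6 (11.6 to 50) and SKG NKT17 by 33.1 (15.8 to 83.4). Between genotypes, SKG NKT1 lay above WT NKT1 without overlap but did not pass the test (log2 fold change 0.85, SE 0.66, 95% interval -0.53 to 2.22, edgeR adjusted p = 0.647). The call between WT NKT17 and WT NKT2 (edgeR adjusted p = 0.0287) compared 0 counts with 13 and depended on WT NKT2 replicate 3, which held 12 of them; without that library the adjusted p was 0.415.

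Itgb1, the β chain shared by the collagen receptors, was at 829.0, 595.6 and 628.3 CPM in WT NKT1 and at 867.8, 885.8 and 763.5 CPM in SKG NKT1. It was at 119.4 to 185.4 CPM in WT NKT2, 106.4 to 129.8 CPM in WT NKT17, 135.7 to 181.7 CPM in SKG NKT2 and 100.7 to 123.4 CPM in SKG NKT17. NKT1 stood apart from the other subsets in both genotypes, whereas NKT2 and NKT17 overlapped in WT. In WT, NKT1 was higher than NKT2 by 2.23 (SE 0.16, edgeR adjusted p = 4.51e-10) and than NKT17 by 2.51 (SE 0.16, adjusted p = 5.58e-11) on the log2 scale. In SKG the differences were 2.42 (SE 0.16, edgeR adjusted p = 2.93e-10) and 2.95 (SE 0.17, adjusted p = 7.77e-12). As β1 is the partner of α1, the CD49a sort marker, these subset differences are not independent of the sort, and its part in them was not tested. No SKG difference of Itgb1 passed the test, with log2 fold changes of 0.29 in NKT1 (95% interval -0.02 to 0.61), 0.11 in NKT2 (-0.21 to 0.43) and -0.14 in NKT17 (-0.47 to 0.18).

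The summed myeloid markers were also high in NKT1, at 273 to 525 CPM in WT and 172 to 212 CPM in SKG against at most 16.7 CPM elsewhere. This sum was nearly all Fcer1g (400 ± 126 CPM in WT NKT1), an adaptor that natural killer cells also use. Of the other listed genes, Csf1r and Cd14 had 0 counts in NKT1 of both genotypes. Lyz2 averaged 2.54 CPM in WT NKT1 (0 to 43 counts in a library) and 0.649 CPM in SKG NKT1. Cd68 averaged 1.33 and 0.367 CPM. The part of myeloid cells in the NKT1 values of the members was not tested.

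The β7 chain and its α partners αE and α4 differed between subsets in separate ways, and Itgb7 and Itga4 also differed between genotypes. Itgae lies at chr11:72904085-72960948 (plus strand), Itgb7 at chr15:102046426-102062366 (minus strand) and Itga4 at chr2:79095583-79173280 (plus strand). The windows of Itga4 (chr2:79095333-79095632) and Itgb7 (chr15:102062317-102062616), which encode the partners of α4β7, are shown because both were called in the SKG comparisons. Capitals mark a T-box match at positions -165 to -159 and a RUNX match on the opposite strand, read as ACCACA, at positions -60 to -55 from the start of Itga4.
Itga4: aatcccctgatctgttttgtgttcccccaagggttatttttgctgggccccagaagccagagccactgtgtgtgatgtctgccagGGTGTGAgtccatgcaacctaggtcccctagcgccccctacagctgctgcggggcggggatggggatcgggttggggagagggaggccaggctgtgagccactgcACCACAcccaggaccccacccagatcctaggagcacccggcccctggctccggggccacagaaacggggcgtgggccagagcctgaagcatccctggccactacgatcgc
Itgb7: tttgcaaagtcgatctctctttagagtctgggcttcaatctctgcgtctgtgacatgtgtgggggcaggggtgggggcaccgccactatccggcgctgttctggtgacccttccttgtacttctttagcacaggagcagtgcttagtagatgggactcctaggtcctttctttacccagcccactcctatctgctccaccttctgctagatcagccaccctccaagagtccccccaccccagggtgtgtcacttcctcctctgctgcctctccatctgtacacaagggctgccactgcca
The Itgb7 window held none of the letters searched, and a match of letters says nothing about binding.

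Itgb7 was higher in SKG than in WT in each subset. In NKT1 it was at 794.5, 633.6 and 784.7 CPM in WT and at 1065, 1232 and 1193 CPM in SKG. In NKT2 it was at 408.4, 414.0 and 402.9 CPM in WT and at 863.3, 1077 and 993.7 CPM in SKG. In NKT17 it was at 1132, 1366 and 1245 CPM in WT and at 1782, 1585 and 2100 CPM in SKG. In each subset the lowest SKG library stood above the highest WT library. The log2 fold change was 1.26 in NKT2 (SE 0.12, 2.39-fold, edgeR adjusted p = 1.33e-07) and 0.66 in NKT1 (SE 0.12, 1.58-fold, adjusted p = 0.00199). In NKT17 it was 0.55 (SE 0.12, edgeR adjusted p = 0.00318), which passed on p but, at 1.46-fold, not on the 1.5-fold minimum. Without WT NKT1 replicate 2, the difference in NKT1 also fell under that minimum (log2 fold change 0.58, edgeR adjusted p = 0.0142), and without replicate 2 of either NKT17 group the NKT17 difference passed it (0.61 to 0.64).

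The SKG effect on Itgb7 was smaller in NKT17 than in NKT2 (difference of log2 fold changes -0.71, SE 0.16, edgeR adjusted p = 0.023). It was larger in NKT2 than in NKT1 (0.60, SE 0.16, edgeR adjusted p = 0.0478), but this difference, at 1.52-fold, sat at the edge of the minimum and was not called under 13 of 22 alternatives. NKT17 stood highest in both genotypes. In WT, NKT17 exceeded NKT1 (NKT1 minus NKT17 -0.76, SE 0.12, edgeR adjusted p = 1.84e-05) and NKT1 exceeded NKT2 by 0.85 (SE 0.12, adjusted p = 4.69e-06). In SKG, NKT17 was again above NKT1 (NKT1 minus NKT17 -0.65, SE 0.12, edgeR adjusted p = 0.000143), while NKT1 and NKT2 overlapped (0.25, SE 0.12, adjusted p = 0.14). The former difference fell under the fold minimum without SKG NKT1 replicate 1 or SKG NKT17 replicate 3 (-0.57 and -0.53 as NKT1 minus NKT17). NKT17 exceeded NKT2 by 1.61 in WT (SE 0.12, edgeR adjusted p = 4.88e-10) and by 0.90 in SKG (SE 0.12, adjusted p = 3.26e-06). Within the 2 title tokens that occur in both genotypes, SKG was above WT in each subset, by 0.35 to 1.42 on the log2 scale.

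Itgae, the CD103 chain, followed the subsets and not the genotype. It was at 1393, 1530 and 1619 CPM in WT NKT17, at 1207, 1106 and 1149 CPM in WT NKT1 and at 597.6, 774.5 and 462.2 CPM in WT NKT2. In SKG it was at 1482, 1535 and 1528 CPM in NKT17, at 1074, 1233 and 985.5 CPM in NKT1 and at 448.8, 607.9 and 476.6 CPM in NKT2. NKT2 lay lowest in both genotypes without overlap. NKT17 exceeded NKT2 by 1.31 in WT (SE 0.14, edgeR adjusted p = 3.46e-07) and 1.57 in SKG (SE 0.14, adjusted p = 3.35e-08), and NKT1 exceeded NKT2 by 0.92 (SE 0.14, adjusted p = 2.77e-05) and 1.10 (SE 0.14, adjusted p = 3.89e-06). The SKG over WT log2 fold changes were -0.07 in NKT1 (95% interval -0.36 to 0.22), -0.26 in NKT2 (-0.55 to 0.04) and 0.00 in NKT17 (-0.29 to 0.29), and none was called.

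Itga4, the chain that α4β1 and α4β7 share, was low throughout and changed with genotype in opposite directions in NKT1 and NKT2. In NKT1 it was at 58.55, 14.32 and 18.95 CPM in WT and at 8.546, 13.33 and 12.82 CPM in SKG. In NKT2 it was at 8.176, 3.845 and 6.466 CPM in WT and at 22.24, 19.97 and 17.66 CPM in SKG. In NKT17 it was at 1.367, 1.391 and 2.882 CPM in WT and at 6.091, 3.838 and 4.504 CPM in SKG. The genotypes did not overlap in any subset, but WT NKT1 replicate 1 stood far above the other WT NKT1 libraries. SKG NKT2 was higher than WT NKT2 by 1.70 (SE 0.44, 3.24-fold, edgeR adjusted p = 0.0159), and SKG NKT1 was lower than WT NKT1 (-1.41, SE 0.42, adjusted p = 0.0767). Without WT NKT1 replicate 1 the NKT1 value was -0.52 (edgeR adjusted p = 0.56), and the call was also lost without any of the 3 SKG libraries (adjusted p = 0.162 to 0.283). In NKT17 the log2 fold change of 1.32 (SE 0.51, 95% interval 0.27 to 2.37, edgeR adjusted p = 0.117) did not pass, but it was called by DESeq2 (adjusted p = 0.0906) and by edgeR without WT NKT17 replicate 3 (1.80, adjusted p = 0.08).

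The SKG effect on Itga4 was higher in NKT2 than in NKT1 by 3.11 (SE 0.61, edgeR adjusted p = 0.00383), a call kept under all 22 alternatives. It was higher in NKT17 than in NKT1 by 2.73 (SE 0.66, edgeR adjusted p = 0.0242), not called with only the libraries of shared tokens (1.80, adjusted p = 0.333), and was not distinguished between NKT17 and NKT2 (-0.38, SE 0.68, adjusted p = 0.925). In WT, NKT1 was above NKT2 by 2.33 (SE 0.44, edgeR adjusted p = 0.000247), and NKT17 was below NKT2 (-1.66, SE 0.50, adjusted p = 0.0186). In SKG, the NKT1 libraries lay below the NKT2 libraries without passing the test (-0.79, SE 0.42, edgeR adjusted p = 0.215), and NKT17 was below NKT2 (-2.04, SE 0.44, adjusted p = 0.00153). NKT1 exceeded NKT17 by 3.98 in WT (SE 0.49, edgeR adjusted p = 1e-06) and by 1.25 in SKG (SE 0.45, adjusted p = 0.0414), the latter not called without replicate 2 or 3 of SKG NKT1 or of SKG NKT17 (1.12 to 1.21). The exons of Itga4 overlap those of Cerkl on the opposite strand, and whether reads were counted by strand is not given in the sources used here, so reads of the shared stretch may have been dropped or given to either gene.

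Within the matched title tokens, Itga4 in NKT2 was higher in SKG by 2.53 and 1.63 on the log2 scale, and in NKT1 it was lower (-0.74 and -0.51). Of the summed level per kilobase of the 6 α members in a library, Itgae took 41.3% to 71.0% and Itga4 at most 0.921%, so α4 was the minor partner of β7 at the transcript level in all 18 libraries.

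The LFA-1 chains Itgal and Itgb2 were abundant in all groups, and no difference between genotypes was called for either. Itgal lies at chr7:134439774-134478651 and Itgb2 at chr10:76992997-77028453, both on the plus strand. Itgal, the αL chain, was at 955.3, 943.7 and 875.6 CPM in WT NKT1, at 853.9, 827.3 and 906.1 CPM in WT NKT2 and at 1040, 1034 and 1048 CPM in WT NKT17. In SKG it was at 819.3, 786.1 and 800.1 CPM in NKT1, at 738.2, 745.5 and 733.7 CPM in NKT2 and at 859.1, 869.6 and 979.5 CPM in NKT17. Each SKG library was below each WT library of its subset. The shift had nearly the same size in NKT1 (-0.21 on the log2 scale, 95% interval -0.38 to -0.04), NKT2 (-0.22, -0.39 to -0.05) and NKT17 (-0.21, -0.37 to -0.04), and none passed the threshold (edgeR adjusted p = 0.239, 0.105 and 0.134). Between subsets, NKT17 was above NKT2 by 0.27 in WT and 0.29 in SKG (SE 0.08 for each, edgeR adjusted p = 0.0182 and 0.0125), under the 1.5-fold minimum.

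Itgb2, the β2 chain of leukocyte integrins, stood in the order NKT1, NKT2, NKT17 in both genotypes. It was at 1090, 1001 and 1308 CPM in WT NKT1, at 872.1, 880.1 and 957.0 CPM in WT NKT2 and at 563.6, 559.8 and 521.7 CPM in WT NKT17. In SKG it was at 1159, 1137 and 1359 CPM in NKT1, at 842.4, 861.4 and 933.1 CPM in NKT2 and at 422.3, 440.7 and 526.3 CPM in NKT17. The 3 subsets did not overlap in either genotype. NKT17 was lower than NKT2 in WT (-0.72, SE 0.11, edgeR adjusted p = 2.38e-05) and in SKG (-0.92, SE 0.11, adjusted p = 9.55e-07). NKT1 was higher than NKT17 by 1.05 in WT (SE 0.11, edgeR adjusted p = 7.51e-08) and 1.4 in SKG (SE 0.11, adjusted p = 1.12e-09), whereas NKT1 and NKT2 differed by less than 1.5-fold (0.33 and 0.47). The SKG over WT values were 0.10 in NKT1 (95% interval -0.12 to 0.33), -0.04 in NKT2 (-0.26 to 0.19) and -0.24 in NKT17 (-0.47 to -0.02, edgeR adjusted p = 0.191).

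Itgb3, the β3 chain that pairs with αv, gave the largest called SKG difference among the members, a lower level in NKT2. It lies at chr11:104469370-104531790 on the plus strand. In NKT2 it was at 193.6, 136.0 and 143.9 CPM in WT and at 25.55, 41.11 and 22.96 CPM in SKG. In NKT17 it was at 178.2, 146.6 and 145.3 CPM in WT and at 132.3, 151.1 and 162.2 CPM in SKG. In NKT1 it was at 3.984, 6.492 and 0.886 CPM in WT and at 12.63, 13.96 and 10.05 CPM in SKG. The genotypes were thus separate in NKT2 and in NKT1, on opposite sides, and overlapped in NKT17. SKG NKT2 was 5.28-fold lower than WT NKT2 (log2 fold change -2.40, SE 0.30, 95% interval -3.04 to -1.76, edgeR adjusted p = 5.78e-05), and SKG NKT1 was higher than WT NKT1 (1.69, SE 0.39, adjusted p = 0.0248). In NKT17 the value was -0.08 (SE 0.28, 95% interval -0.67 to 0.51, edgeR adjusted p = 0.926).

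The 3 differences of the SKG effect on Itgb3 were all called. The effect was lower in NKT2 than in NKT1 (-4.09, SE 0.49, edgeR adjusted p = 0.000102), higher in NKT17 than in NKT2 (2.32, SE 0.41, adjusted p = 0.00598) and lower in NKT17 than in NKT1 (-1.77, SE 0.48, adjusted p = 0.0634). The last of these was lost under 9 of 22 alternatives, including each fit that left out WT NKT1 replicate 1, WT NKT17 replicate 1 or any of 4 SKG libraries (edgeR adjusted p = 0.103 to 0.135). With only the libraries compared, the NKT1 difference kept its size but not its call (1.70, edgeR adjusted p = 0.235). Within the matched title tokens the NKT2 values were -2.41 and -1.81 and the NKT1 values 0.96 and 3.98.

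The order of NKT2 and NKT17 for Itgb3 depended on the genotype. In WT, NKT17 and NKT2 overlapped (-0.01, SE 0.28, edgeR adjusted p = 0.988), and in SKG, NKT17 was higher by 2.31 (SE 0.30, adjusted p = 2.1e-05). The gap between these values is the difference of the SKG effect given above (2.32, SE 0.41, edgeR adjusted p = 0.00598). NKT1 was lowest in both genotypes: 41.7-fold below NKT2 in WT (-5.38, SE 0.37, edgeR adjusted p = 6.52e-09) and 2.45-fold in SKG (-1.29, SE 0.32, adjusted p = 0.00826), and below NKT17 41.4-fold and 12.2-fold (edgeR adjusted p = 5.23e-09 and 2.12e-07). Platelets are rich in β3, and of 5 platelet markers Pf4, Ppbp, Gp9 and Gp6 were at 0 in all 18 libraries, while Gp1ba averaged 0.38 CPM in WT NKT2 and 0.457 CPM in SKG NKT2 (at most 7 counts in a library) and at most 0.0694 CPM elsewhere. Of the sort genes, Icos and Cd4 were also lower in SKG NKT2 than in WT NKT2, and of the other cell types the stromal list, mostly Pecam1, was lowest in NKT1 (14.2 to 33.8 CPM) and high in NKT2 of WT (95.8 to 134 CPM) and SKG (77.5 to 101 CPM). Their part in the Itgb3 values was not tested. Col3a1 and Pdgfra of that list were at 0 in all groups.

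Itgav, the αv chain, lies at chr2:83564554-83647073 on the plus strand and was low in all groups. In NKT1 it was at 4.829, 4.010 and 6.022 CPM in WT and at 9.661, 13.96 and 12.82 CPM in SKG. In NKT2 it was at 2.657, 4.369 and 3.395 CPM in WT and at 5.506, 7.635 and 9.153 CPM in SKG. In NKT17 it was at 8.785, 3.652 and 9.196 CPM in WT and at 8.357, 5.583 and 7.695 CPM in SKG. The genotypes were separate in NKT1 and NKT2 and overlapped in NKT17. SKG NKT1 was higher than WT NKT1 by 1.29 (SE 0.39, edgeR adjusted p = 0.0811), a call that was lost when any of 5 of the 6 NKT1 libraries was left out, all but WT NKT1 replicate 3 (adjusted p = 0.1 to 0.216). In NKT2 the value of 1.09 (SE 0.40, edgeR adjusted p = 0.105) did not pass, but it was called by DESeq2 (adjusted p = 0.0821) and with only the libraries compared (1.11, edgeR adjusted p = 0.0895). In WT, NKT17 was called above NKT2 (1.05, SE 0.40, edgeR adjusted p = 0.0641) although their ranges overlapped, and the call was lost without WT NKT2 replicate 1 or 3 or WT NKT17 replicate 1 or 3 (adjusted p = 0.154 to 0.24). The exons of Itgav overlap those of Gm13684 on the opposite strand, and the same limit holds for its low counts.

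**Figure D3:**
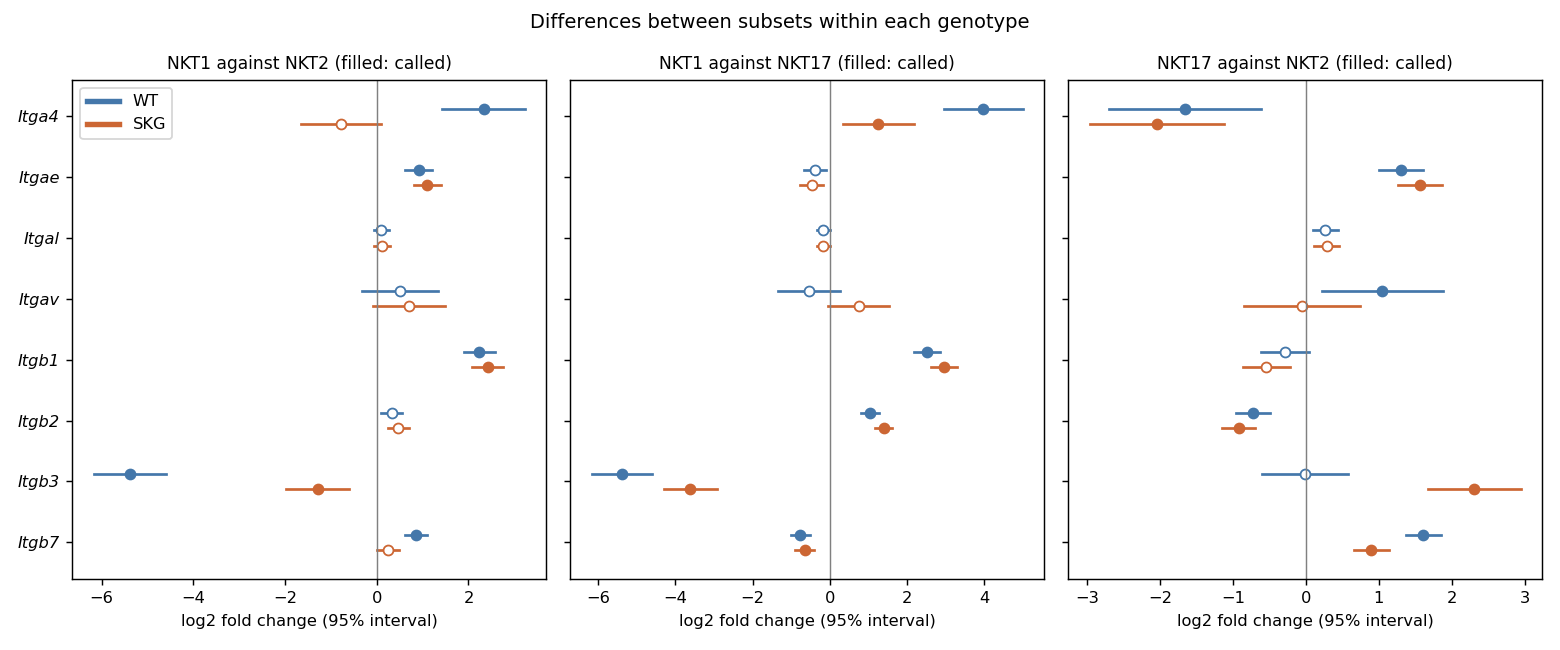
log2 fold change between subsets with its 95% interval (x axes) for 8 integrin chains (y axis) in WT and in SKG, filled where called; Itga1 and Itga2 are left out because their counts were near 0 outside NKT1. Itgb1 is higher in NKT1 than in either other subset in both genotypes, and between NKT1 and NKT2 the WT and SKG values lie far apart for Itga4 (2.33 and -0.79) and Itgb3 (-5.38 and -1.29).

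In the comparison of WT NKT17 with WT NKT2, libraries that share a title token deviated together in all 3 token pairs (correlations of 0.219 to 0.351), so a paired fit with the token as a replicate block was also made. Apart from Itga1 and Itga2, it called the same 5 members as the fit without the block (Itga4, Itgae, Itgav, Itgb2 and Itgb7). The share of all genes called by the paired fit is not given, so this count is not read further. Itga2 was called in both fits on 0 against 13 counts. Itga1 was called only with the block (log2 fold change -2.35, edgeR adjusted p = 0.0882), and its counts in these groups were 2 and 11.

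Set beside the α chains they can pair with, the β chains differed in level. The level of Itgb7 per kilobase, divided by that of Itgae and Itga4 together, had a median over libraries of 1.08, 1.14 and 1.36 in WT NKT1, NKT2 and NKT17. In SKG the medians were 1.66, 3.16 and 2.01, and the lowest SKG library of each subset (1.65, 2.93 and 1.72) stood above the highest WT library (1.13, 1.45 and 1.49), while the lowest WT library was below 1 in NKT1 (0.953) and NKT2 (0.891). By the longest transcript instead of all exons, mean Itgb7 was below mean Itgae in WT NKT1 (276 against 300 CPM per kilobase) and WT NKT2 (153 against 159). For Itgb2 over the 4 α chains of β2 integrins, of which Itgal held nearly all the level, the medians were 2.39, 2.21 and 1.13 in WT and 3.02, 2.41 and 1.06 in SKG. NKT17 was lowest in both genotypes. Itgb1 over 12 α chains gave 4.69, 8.17 and 2.64 in WT and 5.94, 7.17 and 3.44 in SKG. Itgb3 over Itgav and Itga2b gave 65.6 in WT NKT2 but 8.53 in SKG NKT2, with ranges of 43.5 to 134.0 and 4.61 to 9.42, while NKT17 was at 37.3 in WT and 38.7 in SKG and NKT1 at 1.52 (0.27 to 1.90) and 1.74 (1.21 to 2.40). These ratios are of transcripts per length, not of protein, they move with the exon lengths used, and they were not tested.

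**Figure D4:**
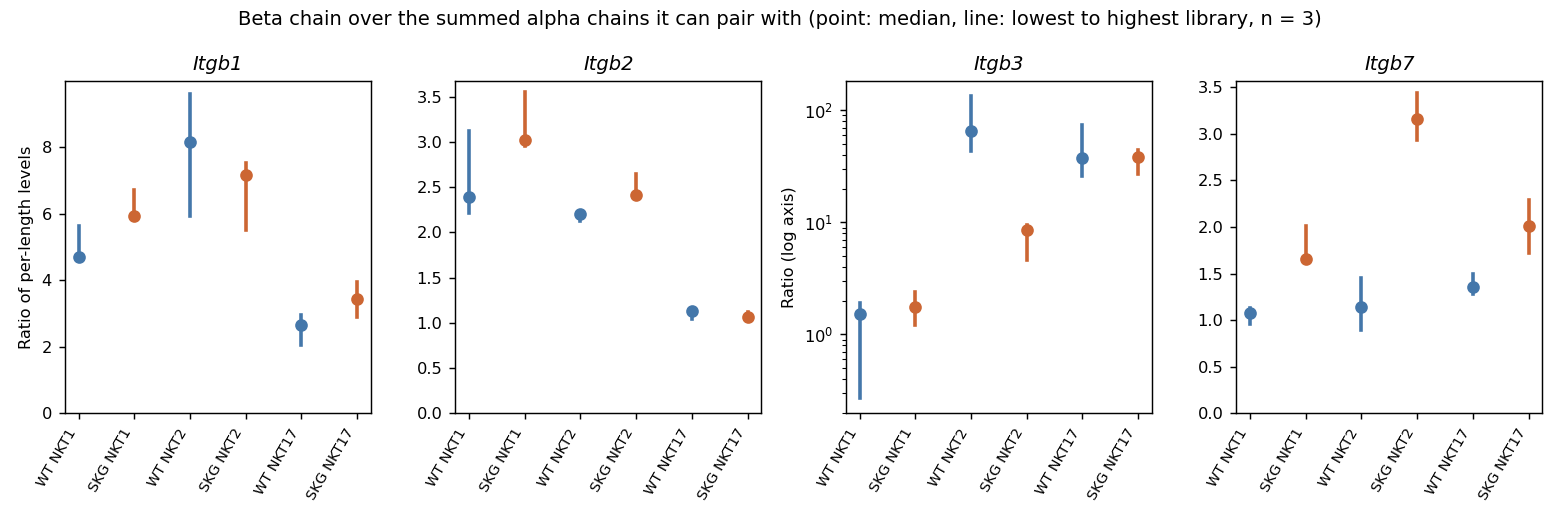
Ratio of the level of each β chain per kilobase to the summed level of the α chains that it can pair with, by group (point: median, line: lowest to highest of 3 libraries; log axis for Itgb3 only). The Itgb7 ratio is higher in each SKG group than in the WT group of its subset, with medians of 1.66, 3.16 and 2.01 against 1.08, 1.14 and 1.36.

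The rest of the pathway was read from fixed lists of 16 other integrin chains, 30 genes of integrin activation and linkage and 19 ligand genes, of which 5, 28 and 8 had enough counts for a test. Between SKG and WT, the activation list had 1, 3 and 3 called genes in NKT1, NKT2 and NKT17, and the ligand list 0, 1 and 1. For the ligand list these are 0%, 12.5% and 12.5% of its 8 tested genes, beside 3.27%, 7.95% and 8.37% of all tested genes. No count is read for the other chains, since Itgb4 and Itgb5 passed the filter on low counts through NKT17 alone. For the activation list the counts are 3.57%, 10.7% and 10.7% of its tested genes, near the shares of all tested genes. Its tested genes went both ways: 11, 18 and 13 had a log2 fold change above 0 in NKT1, NKT2 and NKT17, and 17, 10 and 15 below 0. Rasgrp2, which encodes CalDAG-GEFI, an activator of Rap1, was higher in SKG in NKT1 (177 ± 8.54 against 98.4 ± 11.5 CPM, SD, n = 3), by 0.84 on the log2 scale (SE 0.15, edgeR adjusted p = 0.00169), and in NKT2 (53.1 against 27.1 CPM; 0.97, SE 0.16, adjusted p = 0.000197). In NKT17 Rasgrp2 also stood higher in SKG without overlap, at 48.2 to 60.7 CPM against 28.8 to 45 CPM in WT. Apbb1ip, which encodes the Rap1 effector RIAM, was higher in SKG in NKT2 (75.3 against 39.0 CPM; 0.95, SE 0.16, edgeR adjusted p = 0.000444) and NKT17 (84.7 against 51.9 CPM; 0.70, SE 0.16, adjusted p = 0.00607). Sipa1, which inactivates Rap1, was lower in SKG NKT17 (152 ± 18.7 against 241 ± 38.1 CPM; -0.66, SE 0.12, edgeR adjusted p = 0.000869). Icam1, the main ligand of LFA-1, was higher in SKG NKT2 (72.9 ± 5.41 against 37.3 ± 5.13 CPM; 0.97, SE 0.14, edgeR adjusted p = 5.17e-05). Cd79b, a B cell receptor chain (24.6 to 40.0 against 7.55 to 10.2 CPM), and summed thymocyte markers (14.3 to 47.5 against 5.27 to 12.5 CPM) were also higher in SKG than in WT NKT17, with the B cell factor Pax5 and the thymocyte genes Rag1 and Rag2 at 0; their part in the NKT17 values was not tested.

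Between WT subsets, 10 activation genes were called in NKT1 against NKT2 (8 higher in NKT1), 7 in NKT1 against NKT17 (5 higher) and 9 in NKT17 against NKT2 (7 higher in NKT17). These are 35.7%, 25.0% and 32.1% of the tested list, beside 27.5%, 24.7% and 20% of all tested genes, and no difference of these shares was tested. Zyx, which encodes the focal adhesion protein zyxin, was highest in NKT1 (1090 ± 26.4 CPM, against 206 ± 12.6 in NKT2 and 348 ± 46.1 in NKT17; log2 fold change from NKT2 2.40, SE 0.11, edgeR adjusted p = 3.61e-13). Vcl, which encodes vinculin, was higher in NKT17 than in NKT2 (31.7 against 6.68 CPM; 2.24, SE 0.37, edgeR adjusted p = 6.41e-05), and Fyb, which encodes the adaptor ADAP, was lower (83.7 against 221 CPM; -1.40, SE 0.12, adjusted p = 7.47e-09). Ptk2, the focal adhesion kinase, was lower in NKT1 than in NKT17 (2.17 against 15.2 CPM; -2.76, SE 0.48, edgeR adjusted p = 8.5e-05). Of the 16 other chains, 11 had too few counts for a test and Itgb4 and Itgb5 passed through NKT17 alone, so no count is read for that list. Itga5, the α chain of the fibronectin receptor, was at 32.8 ± 9.12 CPM in WT NKT17, 7.45 ± 0.998 in WT NKT2 and 1.10 ± 1.22 in WT NKT1 (NKT17 over NKT2 2.13, SE 0.45, edgeR adjusted p = 0.00122), and Itga6, a laminin receptor chain, was at 19.8, 9.03 and 9.67 CPM (1.13, SE 0.31, adjusted p = 0.0103). Cdh1, which encodes E-cadherin, the ligand of αEβ7, was at 448 ± 19.8 CPM in WT NKT1, 51.3 ± 8.13 in WT NKT2 and 1.38 ± 1.37 in WT NKT17, and at 296, 50.5 and 3.01 CPM in the SKG groups (NKT1 over NKT2 in WT 3.13, SE 0.35, edgeR adjusted p = 9.32e-06).

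Across the 18 libraries, the genes whose log2 CPM followed each member most closely were read by Pearson's r over all genes averaging at least 20 CPM, as a description, since libraries of a group share their sort. Itga1 was followed by Kcnj8 (r = 0.990), Fcer1g (0.987) and Gzma (0.984), the last a granzyme of cytotoxic cells. Itgb1 was followed by Ly6c1 (0.981), Sidt1 (0.980) and Il10ra (0.980), and Itga2 by Ppm1j (0.949), Ly6c2 (0.946) and Ly6c1 (0.939), so that Ly6c1, a surface protein of the Ly6C locus, stood in both lists. Itgb3 was followed by Rnf144a (0.938), Tmem106c (0.935) and Vwa5a (0.934). Itgb7 was followed by Sit1 (0.941), an adaptor that dampens TCR signals, Sytl1 (0.939) and Kcnk5 (0.934). Itgae was followed by Prkx (0.936), Cd226 (0.935), an activating receptor, and Rhbdf2 (0.932), and Itgb2 by Myo6 (0.961), Bid (0.959) and Inpp4b (0.954). Itgal, Itga4 and Itgav had looser companions, led by Ikzf3 (0.897), Mmp11 (0.904) and Zfp942 (0.8). Among the members, Itga1 and Itgb1 were closest (0.98), Itgb1 and Itgb3 ran most opposite (-0.85), Itgae and Itgb7 were at 0.64, and Itga4 and Itgb7 at -0.23.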

How the data were processed

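RNA from sorted thymic NKT1, NKT2 and NKT17 cells of WT and SKG mice was sequenced as poly-A full-length cDNA with 50-bp single-end reads, in 18 libraries of 6 groups. The authors removed ribosomal, transfer RNA, adapter and spike-in reads, aligned the rest with TopHat 1.4.1 and deposited whole-number read counts per gene from htseq-count in union mode, with no normalization. The strand setting and annotation are not given in the sources used here. The submitters' processing notes also name HTSeq 0.7.1 and Bowtie 1.0.0. The methods name mm9, so positions are given on NCBIM37, while the notes list other builds; counts per gene symbol were used as deposited. A further 2 columns match no sample of the labels and were not used.

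All 18 libraries were fitted with edgeR 4.0.16 (R 4.3.3) by its quasi-likelihood test, with 1 mean per group, TMM scaling (factors 0.928 to 1.07), edgeR's default filter on low counts (11118 genes kept of 15582 with a count), 12 residual degrees of freedom and a biological coefficient of variation of 21.1%. Levels are CPM on TMM-scaled library sizes, and standard errors are the log2 fold change over the square root of the F statistic. Levels per kilobase used the summed exon length. Totals of 4391029 to 8895917 counts set the precision, and exact intervals of low counts cover counting error only, with 3 counts over a group as the floor against 0. The script was tested on simulated data.

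The members and gene lists were chosen with earlier results of these data known. All members were named, as were, for each, the 3 genes of at least 20 CPM most alike by Pearson's r. A list gene was named if it was among the 2 largest called changes of its list in a comparison, averaged 50 counts or more where it was higher and did not overlap between groups.

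Alternatives were RLE size factors, upper-quartile scaling, DESeq2 1.42.0, no filter or one at a mean of 50 counts, a stricter adjusted p (0.05), calls without the fold minimum, only the libraries compared, a replicate block and leaving out each library. The fit on libraries of title tokens that occur in both genotypes was added after seeing the data. The titles carry a token whose meaning is not given. Of 18 pairs of libraries of a genotype with the same token, 12 had deviations correlated above 0.1 (median 0.17), and all 3 pairs did so only between WT NKT17 and WT NKT2. Of 18 pairs between genotypes, 0 did. Promoter windows came from a RefSeq table on GRCm38.p6 that held 6 of the 10 members (not Itgae, Itgal, Itgb2 and Itgb3). Protein sequences were not analysed here. Some items are not reported here.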

Additional observations from a re-analysis of the deposited data

Results flagged for a closer look

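For 3 members the SKG difference itself differed between subsets by the test of that difference (edgeR's quasi-likelihood test, 3 libraries per group), which is why they are listed. For Itga4 the SKG effect in NKT2 exceeded that in NKT1 by 3.11 on the log2 scale (SE 0.61, adjusted p = 0.00383) and the effect in NKT17 exceeded that in NKT1 by 2.73 (SE 0.66, adjusted p = 0.0242). For Itgb3 the effect in NKT2 was lower than in NKT1 (-4.09, SE 0.49, adjusted p = 0.000102), the effect in NKT17 was lower than in NKT1 (-1.77, SE 0.48, adjusted p = 0.0634) and the effect in NKT17 was higher than in NKT2 (2.32, SE 0.41, adjusted p = 0.00598). For Itgb7 the effect in NKT2 was higher than in NKT1 (0.60, SE 0.16, adjusted p = 0.0478) and the effect in NKT17 was lower than in NKT2 (-0.71, SE 0.16, adjusted p = 0.023). All but the differences between NKT17 and NKT1 involve the SKG NKT2 libraries, in which Icos and Cd4 were also below WT NKT2, and the part of those genes was not tested.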

How the results depend on the processing

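Of 120 member results, 67 changed neither call nor direction under any alternative. A call was lost under at least 1 alternative for 13, gained for 16, and the direction turned for 24, none of which had been called. Of the 51 calls, 38 held under every alternative run. The cause of the changes was not tested.

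Counts of members called moved as follows. For SKG against WT in NKT17, 0 members were called, and 1 under DESeq2, under the replicate block and without the fold minimum. For SKG against WT in NKT1, 4 were called, 2 under the replicate block and with an adjusted p under 0.05, and 1 with only the libraries compared and with shared title tokens. For the SKG effect in NKT17 minus NKT1, 2 were called, 1 without the filter and with an adjusted p under 0.05, and 0 with shared tokens. For NKT17 minus NKT2 it was 0 with shared tokens, which leave 2 libraries per group. Leaving out a library gave 2 to 4 calls for SKG against WT in NKT1, 0 to 1 in NKT17 and 1 to 3 for NKT17 minus NKT1.

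The log2 fold changes that turned in direction were these. With RLE size factors and with DESeq2, Itgae for SKG against WT in NKT17 was -0.01 and Itgal for the SKG effect in NKT17 minus NKT1 was -0.02. With upper-quartile scaling, which moved the median of all genes by -0.102 between WT NKT1 and NKT2, Itgav for SKG against WT in NKT17 was 0.01, Itgal for NKT1 against NKT2 in WT was 0.00 and Itgal for NKT17 minus NKT1 was -0.01. Without the filter, Itgav for SKG against WT in NKT17 and Itgal for NKT17 minus NKT1 were both 0.00, and with a mean of at least 50 counts the latter was -0.01. Under the replicate block, Itga1 for SKG against WT in NKT1 was 0.24, Itgb1 and Itgb3 for SKG against WT in NKT17 were 0.03 and 0.11, Itgb3 for NKT17 against NKT2 in WT was 0.00 and Itgal for NKT17 minus NKT1 was 0.00. The replicate block by title token also lost the calls of Itga4 (-0.86, adjusted p = 0.337) and Itgav (1.21, adjusted p = 0.157) for SKG against WT in NKT1. It gained that of Itga4 in NKT17 (1.65, adjusted p = 0.0374). For SKG against WT this block is not a full pairing, since only some of the tokens occur in both genotypes. With only the libraries compared, Itgae for SKG against WT in NKT17 and Itgb3 for NKT17 against NKT2 in WT were 0.00 and Itgal for NKT17 minus NKT1 was -0.02.

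With shared tokens, Itga1, Itgae and Itgb2 for SKG against WT in NKT1 were 0.19, 0.03 and -0.01, and Itga1, Itgae and Itgav in NKT17 were 2.19, -0.06 and 0.11. In the same fit, Itga1, Itgae and Itgal for NKT17 minus NKT1 were 2.00, -0.10 and -0.09, and Itgal for NKT17 minus NKT2 was -0.04. With shared tokens, 8 calls were lost: Itga4 (-0.61, adjusted p = 0.634), Itgav (1.23, adjusted p = 0.357) and Itgb3 (1.87, adjusted p = 0.161) for SKG against WT in NKT1, Itgb7 for NKT2 minus NKT1 (0.55, adjusted p = 0.353), Itga4 (1.80, adjusted p = 0.333) and Itgb3 (-1.91, adjusted p = 0.329) for NKT17 minus NKT1, and Itgb3 (2.02, adjusted p = 0.262) and Itgb7 (-0.88, adjusted p = 0.111) for NKT17 minus NKT2.

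Leaving out a library in turn gave these ranges. For SKG against WT in NKT1, Itga1 ran from -0.21 to 0.12 and Itgae from -0.15 to 0.00. For SKG against WT in NKT2, Itga2 ran from -0.89 to 2.35, Itgb1 from -0.01 to 0.32 and Itgb2 from -0.09 to 0.00. For SKG against WT in NKT17, Itga1 ran from -2.60 to 1.84, Itgae from -0.06 to 0.06, Itgav from -0.32 to 0.23 and Itgb3 from -0.15 to 0.02. For the SKG effect in NKT2 minus NKT1, Itga2 ran from -1.76 to 1.5, Itgae from -0.36 to 0.02, Itgal from -0.05 to 0.01 and Itgb1 from -0.35 to 0.00. For NKT17 minus NKT1, Itga1 ran from -2.54 to 1.90, Itgae from -0.02 to 0.13 and Itgal from -0.08 to 0.03. For NKT17 minus NKT2, Itga1 ran from -0.41 to 4.03, Itga4 from -0.63 to 0.11 and Itgal from -0.05 to 0.05. Itgb3 for NKT17 against NKT2 in WT ran from -0.12 to 0.16, and Itgav for NKT17 against NKT2 in SKG from -0.22 to 0.14.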
